A study of Drosophila melanogaster with 12 samples.

Results

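SL2 cells are a line of embryonic origin from *Drosophila melanogaster* with the properties of macrophage-like blood cells, the plasmatocytes. Their unstimulated transcriptome was described here from the 3 arrays of cells that received control dsRNA against GFP, a sequence the fly genome does not hold, and no lipopolysaccharide (LPS). These are 3 of the 12 arrays of the series. The other 9 come from cells given dsRNA against Tis11, LPS or both, and were not compared here. All cells of the group are the same line, given 12.5 µg/ml GFP dsRNA for 4 days, and the 3 arrays are biological repeats, called replicates 1, 2 and 3. No array of cells without dsRNA was used, so the values are those of dsRNA-treated cells. The question asked is what such cells express strongly, and which hemocyte, immune, signaling and tissue marker genes lie near background.

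Expression was measured on Affymetrix Drosophila Genome 2.0 arrays, on which a gene is read by 1 or more probe sets. The authors deposited log2 signals after Robust Multi-array Analysis (RMA). Of 18769 probe sets that are no controls, 13647 are annotated to 1 gene, 402 to several and 4720 to none, and the named ones cover 11982 genes. A gene is represented by its probe set with the highest mean over the 3 arrays. Values are log2 signals, given as the mean ± SD over 3 arrays. A mean under 6 is called near background. Signals of different probe sets also depend on the affinity of their probes, so an order of genes by signal is an order of signals and not of mRNA copies. Each array averages over the cells of a culture, and a strong signal in few cells cannot be told apart from a weak signal in all.

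Hemocytes of the fly fall into plasmatocytes, which engulf microbes and dead cells and secrete basement membrane, crystal cells, which carry prophenoloxidases for melanization, and lamellocytes, which encapsulate parasites. The GATA factor Serpent stands at the head of the lineage, and Lozenge and Gcm direct crystal cells and plasmatocytes. Microbes are sensed through the Toll and Imd pathways, which end in the NF-kappaB proteins Dorsal, Dif and Relish and in the production of antimicrobial peptides.

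Across the array, the mean signal was at or above 6 for 7185 probe sets, or 38.3%. At the level of genes, 5894 of 11982 (49.2%) were at or above 6, 825 (6.89%) at or above 10 and 79 (0.659%) at or above 12. The other 6088 genes (50.8%) were near background, and the median gene had a signal of 5.90. All 3 arrays were at or above 6 for 5655 genes, no array for 5843, and the arrays fell on both sides for 484. To see what a gene reads that such cells are not known to use, 213 genes of the odorant, gustatory and ionotropic receptor and odorant binding protein families were examined. Their median was 4.39, their 95th percentile 5.64, and 5 of them (2.35%) were at or above 6. *Ir76a* had the highest signal of these, 7.81 ± 0.12, from a probe set whose probes can match several transcripts. *Obp44a* was at 6.19, 6.70 and 10.29 on the 3 arrays, so its place above 6 differs in strength between repeats.

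**Figure D1:**
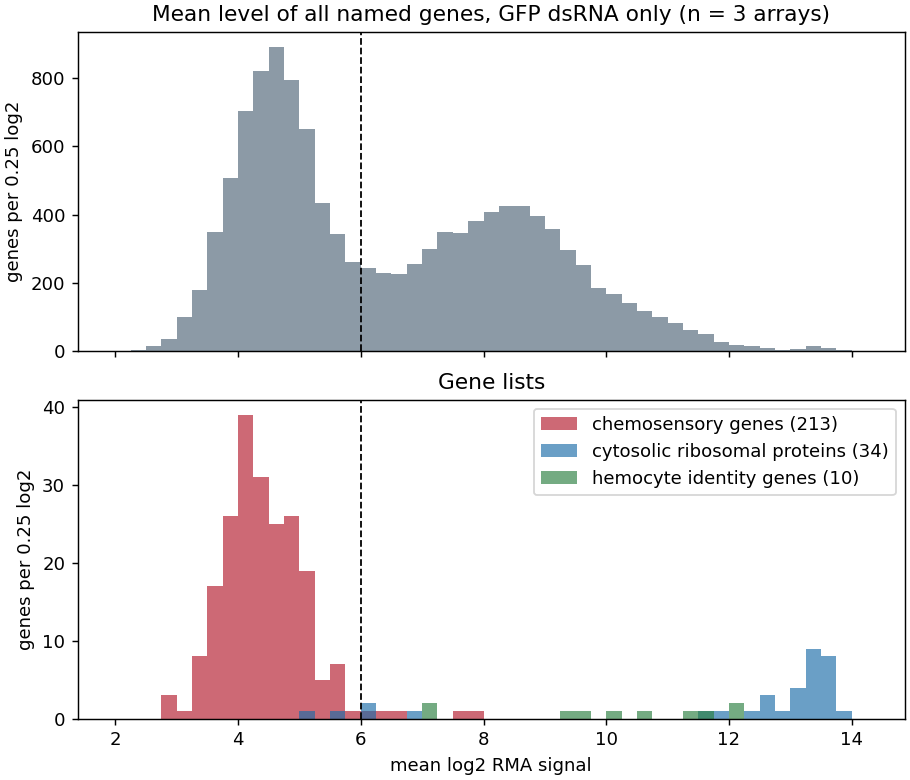
Number of genes (y axis) by mean log2 signal over the 3 arrays (x axis, bins of 0.25), for all 11982 named genes (top) and for 3 gene lists (bottom); the dashed line marks 6. The chemosensory genes center on 4.39 while the ribosomal protein genes center on 13.25 and all 10 hemocyte identity genes lie to the right of the line.

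The 3 repeats were not equally alike. Over all probe sets, Pearson's r across probe sets, which are not independent, was 0.991 between replicates 1 and 2, 0.988 between 2 and 3 and 0.977 between 1 and 3. The last pair differed by more than 1 on the log2 scale at 848 probe sets, against 177 for replicates 1 and 2. The median SD of a probe set was 0.14, and an SD over 1 was seen for 113 of the 7185 probe sets at or above 6. For some lists the count without replicate 3 is given where the list is described, but not for every list whose count changed. Of the chemosensory genes, 4 are at or above 6 without replicate 3.

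The 5 genes taken as markers of this line were all well above background. *srp*, which encodes Serpent, was at 10.70, 10.68 and 10.17 on the arrays of replicates 1, 2 and 3. *Pxn*, the gene of the matrix enzyme peroxidasin, read 11.05, 11.02 and 9.69, and its other probe set had a mean of 5.39. *eater*, a phagocytosis receptor with EGF-like repeats, read 10.85, 10.13 and 9.44. For these 3 genes the array of replicate 3 was the lowest. *NimC1*, the receptor known as the plasmatocyte antigen P1, read 9.18, 9.69 and 9.78, with replicate 1 the lowest. *Rel*, which encodes Relish, read 10.20, 10.03 and 9.89 and was the steadiest of the 5. All 15 values lie above 9, which is a description, as these markers were chosen with the data known.

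Of the wider list of 10 hemocyte identity genes, 10 were at or above 6 and 6 at or above 10, against 49.2% and 6.89% of all genes. The median of the list was 10.37 against 5.90 for all genes. *vkg* and *Col4a1*, the 2 chains of type IV collagen, were at 12.10 ± 0.22 and 11.65 ± 0.22 (SD, n = 3). *He*, which encodes the hemocyte surface protein Hemese, was at 12.07 ± 0.28 and held rank 74 of 11982. *Sr-CI*, a scavenger receptor that binds bacteria, was at 11.28 ± 0.34. The lowest of the list were *Hml*, encoding the clotting protein hemolectin, with 8.18, 6.97 and 6.37 on the 3 arrays, and *Ppn*, a matrix protein gene, at 7.18 ± 0.27. Without replicate 3 all 10 remained at or above 6.

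Transcription factors of hemocytes divided sharply. *srp* and *ush*, the gene of the Serpent cofactor U-shaped (8.18 ± 0.48), were the 2 of 9 measured factors (22.2%) at or above 6, against 49.2% of all genes. *gcm* and *gcm2*, which direct plasmatocytes in the embryo, were at 4.29 ± 0.04 and 3.88 ± 0.20. *lz*, which directs crystal cells, was at 3.15, 3.34 and 3.24, among the lowest signals on the array at rank 11834. *kn* (4.90 ± 0.13), *peb* (4.83 ± 0.18), *Antp* (4.05 ± 0.10) and *Hand* (3.55 ± 0.14) were near background too. All 7 were below 6 on each of the 3 arrays.

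Markers of the other hemocyte types were mixed. The prophenoloxidase genes, whose enzymes carry out melanization, all gave signal. *PPO2* read 8.73, 9.92 and 9.67, and *PPO1* 7.54, 7.85 and 7.09. *PPO3*, the lamellocyte form, was at 8.63 ± 0.13. By contrast *atilla*, the lamellocyte antigen L1, read 5.01, 4.82 and 5.16. *ItgaPS4*, the lamellocyte integrin, read 4.23, 4.05 and 5.84, and so was near background on all 3 arrays. The list of 8 crystal cell markers had 4 at or above 6 and 4 under it, close to the 49.2% of all genes, and 5 without replicate 3. Of 7 measured lamellocyte markers 5 were at or above 6, among them *cher* (10.48 ± 0.56), *mys* (9.11 ± 0.42) and *rhea* (8.87 ± 0.12), which encode filamin, the beta integrin and talin and are used by many cell types.

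**Figure D2:**
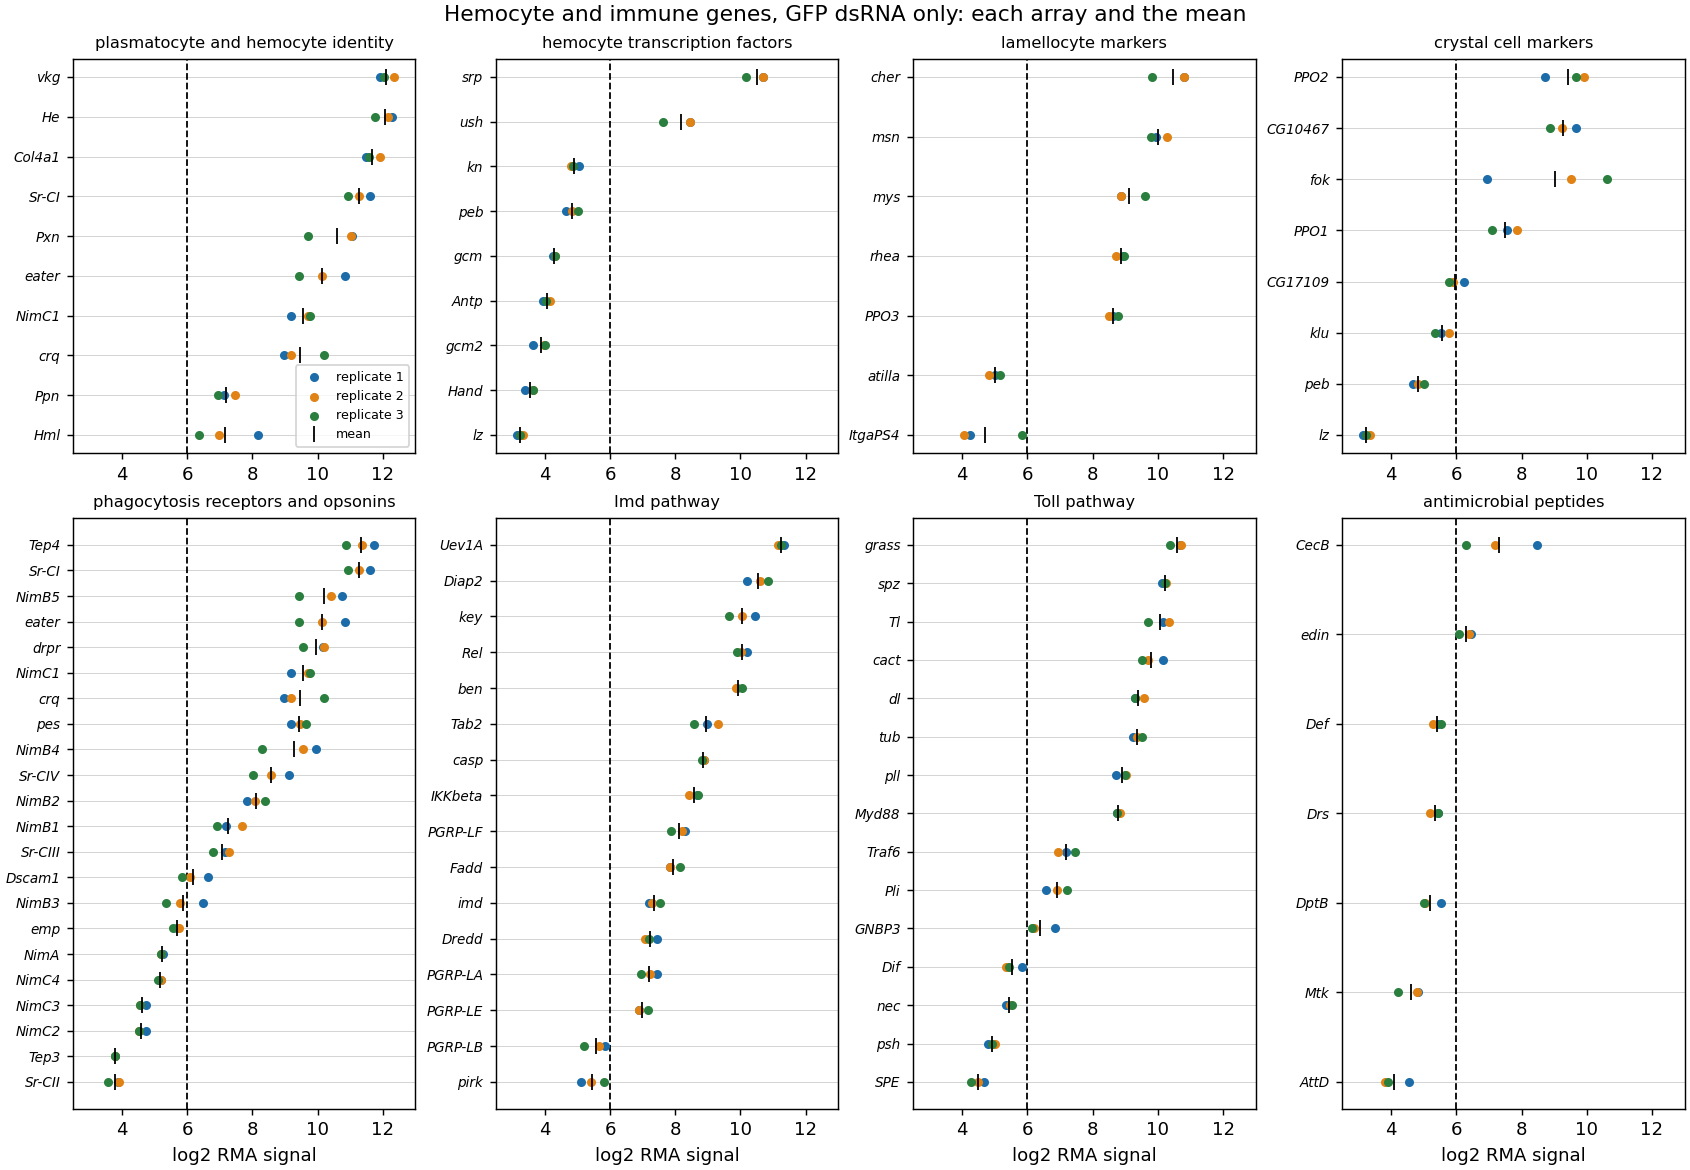
Log2 signal (x axis) of each measured member (rows) of 8 hemocyte and immune lists; colored points are the 3 arrays, black ticks their mean, and the dashed line marks 6. All hemocyte identity genes lie right of the line, while 7 of 9 hemocyte transcription factors and 5 of 7 genes of the antimicrobial peptide list lie left of it. Of all genes, 50.8% were under 6.

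Of 22 phagocytosis receptors and opsonins, 14 (63.6%) were at or above 6, against 49.2% of all genes. *Tep4*, a thioester protein of the complement-like family, gave the strongest signal of the list with 11.73, 11.35 and 10.88. *drpr*, the receptor for dead cells Draper, was at 9.97 ± 0.37, and *crq*, the CD36-like receptor Croquemort, at 9.45 ± 0.65. Among the Nimrod genes, 7 of 12 (58.3%) were at or above 6, near the share of all genes, and 8 without replicate 3. The secreted members *NimB5* (10.20 ± 0.68), *NimB4* (9.27 ± 0.87), *NimB2* (8.11 ± 0.28) and *NimB1* (7.26 ± 0.39) were above it. *NimB3* was at 6.48, 5.79 and 5.34, so that its arrays straddle the line. *NimC2*, *NimC3*, *NimC4* and *NimA* lay between 4.58 and 5.23. The NimC4 product, SIMU, takes part in apoptotic cell uptake in embryonic macrophages. Within the class C scavenger receptors, *Sr-CI* and *Sr-CIV* (8.57 ± 0.54) and *Sr-CIII* (7.08 ± 0.26) were above 6, and *Sr-CII* was at 3.78 ± 0.17. Replicate 3 was the lowest array for 17 of the 22 genes of this list, against 4489 of all 11982 genes. The median of the list differed less between repeats and was 7.53, 7.88 and 7.47 on the 3 arrays, and 15 genes of the list are at or above 6 without replicate 3.

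Of 16 measured Imd pathway genes, 14 were at or above 6, against 49.2% of all genes. The median of the list was 8.36. The receptor gene *PGRP-LC*, the kinase gene *Tak1* and *eff* were not analysed here. *imd* itself was at 7.35 ± 0.18, and *Fadd* and *Dredd*, the adaptor and the caspase it recruits, at 7.94 ± 0.18 and 7.23 ± 0.19. *key* and *IKKbeta*, the kinase subunits that act on Relish, read 10.04 ± 0.40 and 8.59 ± 0.15. The ubiquitin ligase gene *Diap2* and the conjugating enzyme genes *Uev1A* and *ben*, which link imd to the kinases, were at 10.54 ± 0.32, 11.25 ± 0.09 and 9.94 ± 0.11. The intracellular peptidoglycan sensor gene *PGRP-LE* was lower at 6.97 ± 0.16. The 2 members near background both encode negative regulators that the pathway itself induces, *PGRP-LB* (5.84, 5.65 and 5.21), an enzyme that cleaves peptidoglycan, and *pirk* (5.12, 5.43 and 5.81), which blocks the receptor. Another inhibitor gene, *casp*, was at 8.86 ± 0.03. The related genes *PGRP-LF* and *PGRP-LA* were above 6 as well, at 8.12 ± 0.22 and 7.20 ± 0.25.

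Of 15 measured Toll pathway genes, 11 were at or above 6, against 49.2% of all genes. *spz*, the gene of the Toll ligand, read 10.12, 10.26 and 10.23. *Tl*, the receptor gene, read 10.17, 10.35 and 9.69, while its other probe set had a mean of 5.60. Downstream, *Myd88* (8.79 ± 0.06), *tub* (9.38 ± 0.14) and *pll* (8.90 ± 0.17) form the receptor complex, *cact* (9.79 ± 0.34) encodes the inhibitor, and *dl* (9.39 ± 0.17) encodes Dorsal. *Dif*, the gene of the second NF-kappaB factor of this pathway, read 5.83, 5.34 and 5.43 and lay near background, on a probe set shared by several transcripts. Genes of the protease cascade that leads to active Spätzle differed, as *grass* was at 10.59 ± 0.19 while *psh* and *SPE* were at 4.91 ± 0.11 and 4.48 ± 0.20. *SPE* was the lowest of the list.

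Antimicrobial peptide genes formed the immune list with the lowest share above background. At or above 6 were 2 of 7 measured members (28.6%), against 49.2% of all genes, and the median was 5.35. The count depends on the line drawn, with 5 of 7 at or above 5 and 1 of 7 at or above 7. *CecB*, a cecropin gene, read 8.47, 7.18 and 6.31. *edin*, a small induced gene of the Imd pathway that was counted in this list, read 6.45, 6.40 and 6.08. *Def* (5.42 ± 0.13), *Drs* (5.35 ± 0.13), *DptB* (5.19 ± 0.29), *Mtk* (4.60 ± 0.35) and *AttD* (4.08 ± 0.40) were near background on every array. The other genes on the list, such as *AttA* and *DptA*, were not analysed here. As dsRNA was applied, the genes of RNA interference were examined as well. Of these 7 of 7 were at or above 6, against 49.2% of all genes. *Dcr-2*, the enzyme that cuts dsRNA, read 8.81, 8.90 and 10.02, and its partner *r2d2* 7.64, 7.65 and 8.19, each highest in replicate 3.

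Over the signaling lists, 76 of 100 measured genes were at or above 6, against 49.2% of all genes, and 77 without replicate 3. In the JNK pathway 11 of 12 genes were at or above 6, led by *kay*, the Fos gene (10.78 ± 0.10, with its other probe set at 5.19), and *egr*, the gene of the TNF ligand Eiger (10.33 ± 0.38), with its receptor genes *wgn* at 8.19 ± 0.14 and *grnd* at 3.61 ± 0.05. In JAK-STAT signaling, *Stat92E* was at 10.73 ± 0.42 and the receptor gene *dome* at 7.25 ± 0.60. Its ligand genes *upd1* (4.40 ± 0.07) and *upd2* (5.18 ± 0.26) were near background. *Pvr*, the receptor related to those for PDGF and VEGF, which hemocytes need for survival, was at 10.45 ± 0.18. Of its ligands, *Pvf2* read 8.26, 7.74 and 9.74, while *Pvf1* and *Pvf3* were at 4.55 ± 0.02 and 5.01 ± 0.13.

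The EGF receptor gene *Egfr* was near background at 5.10, 5.22 and 4.85. Its ligand genes *spi* (11.06 ± 0.25) and *grk* (9.17 ± 0.49) were not, although *grk*, encoding Gurken, is best known from the oocyte. For Hedgehog, *smo*, the transducer, was at 7.77 ± 0.08 and *ptc*, the receptor, at 6.17 ± 0.22. The coreceptor genes *boi* and *ihog* were at 8.12 ± 0.37 and 7.64 ± 0.15. The transcription factor gene *ci* (4.41 ± 0.36) and the ligand gene *hh* (3.69 ± 0.14) were near background. For the BMP and activin pathways 10 of 13 genes were at or above 6, against 49.2% of all genes. The type II receptor gene *put* was at 10.08 ± 0.13, with *wit* at 3.73 ± 0.06 and the ligand gene *dpp* at 3.80, 4.54 and 5.70. The ligand gene *gbb* (9.91 ± 0.29) and the type I receptor genes *sax* (9.85 ± 0.25), *tkv* (8.41 ± 0.39) and *babo* (8.27 ± 0.31) were above 6. In the ecdysone pathway *usp* was at 8.60 ± 0.14, while *EcR*, its partner in the hormone receptor, read 5.56, 6.18 and 5.65. Of the Notch and Wnt lists 6 and 2 genes were measured, and the receptors were not analysed here.

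**Figure D3:**
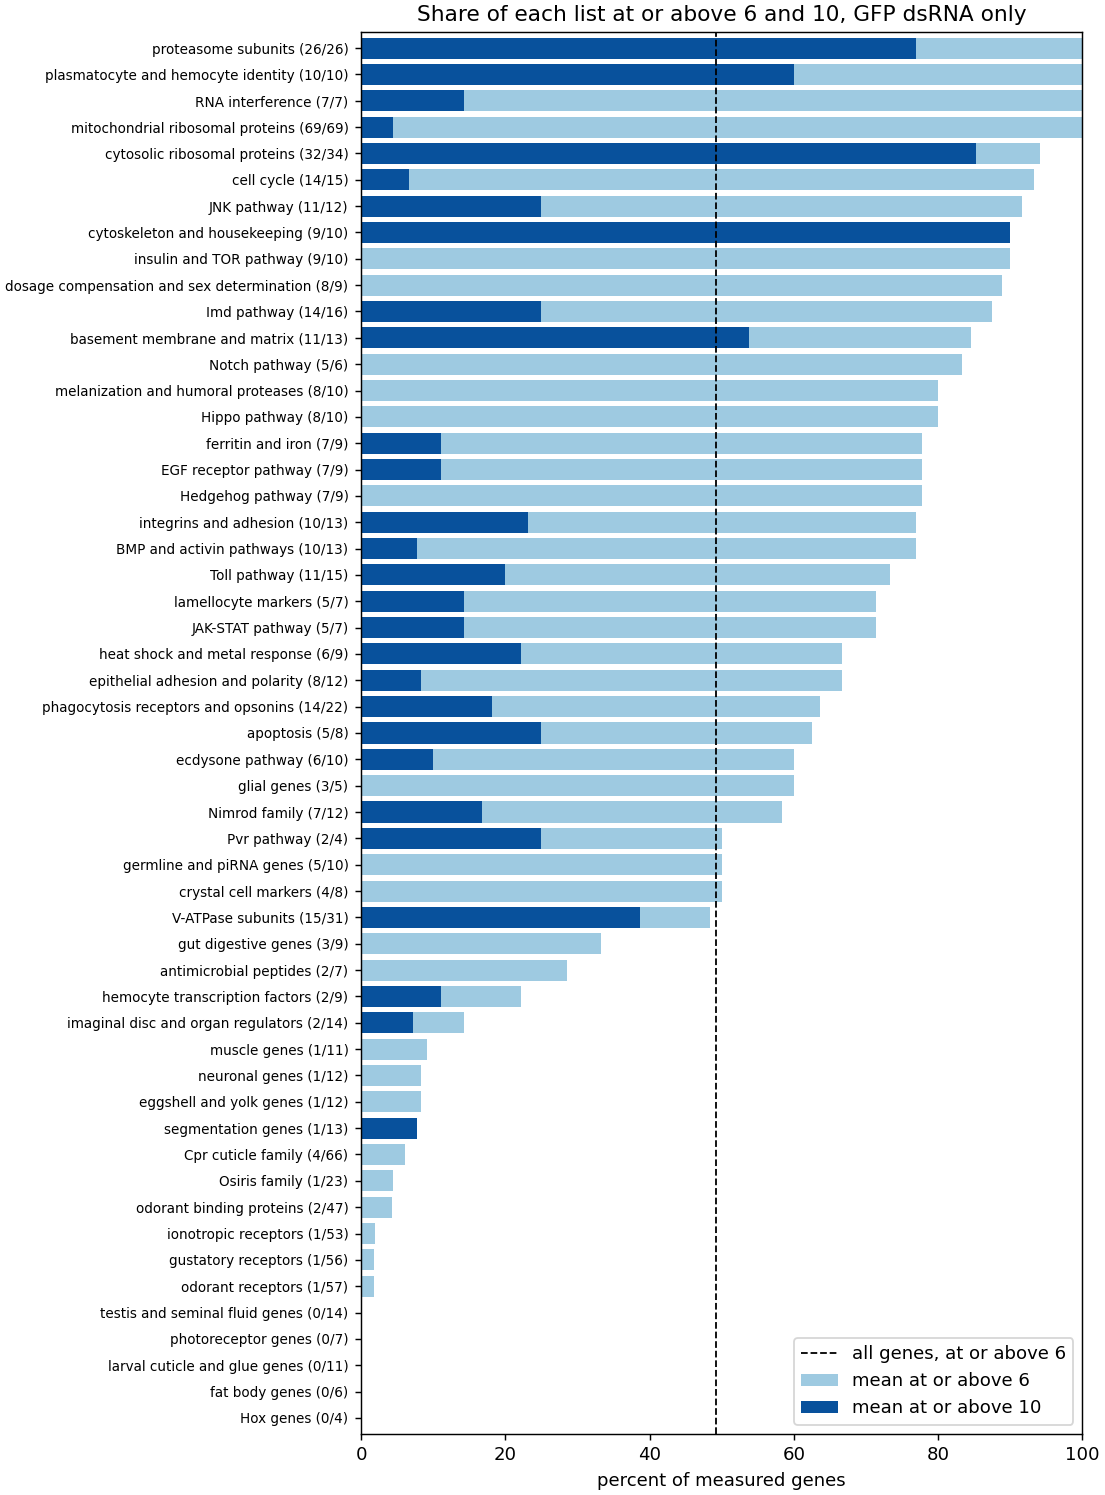
Percent of the measured genes of each list (rows, with at or above 6 over measured in brackets) with a mean at or above 6 (light) and at or above 10 (dark); the dashed line marks the 49.2% of all genes at or above 6. Hemocyte identity, proteasome, RNA interference and mitochondrial ribosome lists reach 100%, while fat body, photoreceptor, testis, Hox and glue lists have no gene at or above 6. The proteasome list (26 genes, lowest 9.40) leaves out the copies with R or T in their names, while the V-ATPase list keeps its weak copies.

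Markers of other tissues were mostly near background. Over all such lists, 30 of 229 genes were at or above 6, or 13.1% against 49.2% of all genes, and 32 without replicate 3. Many of the 229 come from 2 large families, the Cpr cuticle genes (4 of 66 at or above 6) and the Osiris genes (1 of 23), which lower this share. The lists differed, from no gene to 8 of 12 for epithelial and 3 of 5 for glial genes. The 14 genes of testis and seminal fluid, 11 of larval cuticle and glue, 7 of photoreceptors, 6 of the fat body and 4 Hox genes were all under 6. In the fat body list the highest was *Fbp1* at 5.41 ± 0.15, and *apolpp*, encoding the lipid carrier of the hemolymph, read 5.73, 4.98 and 4.54. Among 12 neuronal genes 1 was above, the calcium channel gene *cac* (6.32 ± 0.05, with its other probe set at 4.34), and *elav* and *nSyb* were at 5.69 ± 0.17 and 5.11 ± 0.01. Of 11 muscle genes *bt*, which encodes projectin, was above at 7.44 ± 0.45.

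Some regulators of other organs nevertheless gave strong signals. *hry*, the pair-rule gene hairy, was the strongest of the tissue lists at 10.94, 11.41 and 11.86, whereas the other 12 segmentation genes were between 3.04 and 5.77. *pnr*, a GATA factor gene of the heart and dorsal thorax, read 10.75, 10.44 and 9.67. *toy*, an eye selector gene, read 7.60, 6.35 and 5.09, and its mean of 6.35 comes to lie under 6 without replicate 1. The lowest of its 3 probe sets was at 3.33. Of 12 epithelial genes, 8 (66.7%) were at or above 6, against 49.2% of all genes, and 9 without replicate 3. *cora*, of the septate junction, was at 10.37 ± 0.13, and *shg*, the gene of DE-cadherin, at 5.24 ± 0.24, as was *grh*, an epithelial transcription factor gene, at 4.97 ± 0.12. The 5 glial genes had a median of 7.57, and of 6.07, 7.64 and 7.81 on the 3 arrays. *moody*, a receptor gene of the blood-brain barrier, read 8.45, 9.43 and 9.92, *nrv2* was at 7.70 and *Gs2* at 7.57, while *repo*, the glial transcription factor gene, was at 4.51 and *wrapper* at 3.62.

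Germline genes fell on either side, 5 of 10 at or above 6, close to the share of all genes. The Argonaute genes of the piRNA pathway were above, with *aub* at 9.30, 8.93 and 9.29, *piwi* at 8.22, 8.68 and 8.84 and *AGO3* at 7.51, 7.37 and 7.54. *zpg*, which encodes a germ cell innexin, was at 8.43 ± 0.30. *vas* (4.35 ± 0.13), *osk* (4.32 ± 0.08), *bam* (3.87 ± 0.32) and *tej* (4.02 ± 0.56) were near background.

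Of 9 measured genes of dosage compensation and sex determination, 8 were at or above 6, against 49.2% of all genes. *msl-2*, whose protein limits assembly of the male dosage compensation complex, read 7.15, 7.80 and 7.86. *Sxl*, whose mRNA is transcribed in both sexes but gives full protein in females, read 7.72, 8.44 and 7.85, while the lowest of its 3 probe sets was at 2.57. *dsx*, the terminal sex determination gene, was at 3.42 ± 0.06.

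The strongest signals belonged to protein synthesis. Of the 25 genes with the highest means, 18 encode ribosomal proteins, with *RpLP1* first at 13.79 ± 0.04. Of 34 cytosolic ribosomal protein genes measured, 29 were at or above 10, against 6.89% of all genes. The median of the 34 was 13.25. Names are missing for many of the strongest probe sets. Of the 100 highest probe sets 43 were annotated to 1 gene and 56 to none, so the ranks are those among named genes. Besides ribosomal proteins, the highest were *CG5953* (13.79 ± 0.05), the neuropeptide-like precursor gene *Nplp2* (13.52 ± 0.17), the chaperone gene *Hsc70-4* (13.41 ± 0.14), *eEF5* (13.32 ± 0.03), *Rack1* (13.32 ± 0.05) and the helicase gene *eIF4A* (13.31 ± 0.12). The second probe set of *CG5953* was at 9.24.

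Other strong signals came from genes of the matrix, lysosome and cytoskeleton, taken from the top ranks. *SPARC*, whose product binds collagen IV in basement membranes, read 13.34, 13.30 and 12.97. In the basement membrane list 11 of 13 genes were at or above 6 and 7 at or above 10, against 49.2% and 6.89% of all genes. *LanA*, the laminin alpha chain gene, was at 11.66 ± 0.11 and nidogen (*Ndg*) at 4.75 ± 0.05. Of 9 cathepsin genes 6 (66.7%) were at or above 6. Of 8 genes of the Npc2 family 3 (37.5%) were, a lower share than over all genes, although *Npc2a* was strong at 11.93 ± 0.54. *CtsL1*, a cathepsin gene, was at 13.06 ± 0.18, *Sap-r*, a saposin precursor gene, at 12.69 ± 0.04, and *Lamp1*, of the lysosomal membrane, at 12.44 ± 0.03. *FASN1*, the fatty acid synthase gene, was at 12.92 ± 0.06. *Moe*, which links membrane and actin, and *tsr*, the cofilin gene, were at 12.68 ± 0.11 and 13.29 ± 0.17. The Idgf genes, for secreted chitinase-like growth factors, were at 12.62 ± 0.63 (*Idgf6*), 12.43 ± 0.45 (*Idgf2*) and 12.11 ± 0.27 (*Idgf3*), with *Idgf5* at 4.33 ± 0.11.

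Within some families that form a shared machine, the signals parted into strong and weak copies. In others single genes lay in between, such as *RpS5b* (6.84 ± 0.08) for ribosomal proteins and *Rpt3R* (6.44 ± 0.31) for regulatory proteasome subunits. The grouping into families, and the families described, were chosen after the values were seen. Of 31 V-ATPase genes, which encode the proton pump of lysosomes, 15 were between 8.92 and 12.48 and the other 16 between 3.69 and 5.68, with none in between. *Vha16-1*, a proteolipid subunit gene, was at 12.48 ± 0.10, while *Vha16-2*, *Vha16-3*, *Vha16-4* and *Vha16-5* were between 4.33 and 5.17. Of 22 proteasome core genes, 12 were between 10.30 and 11.16 and 10 between 3.71 and 5.24, the latter being copies with R or T in their names, such as *Prosbeta5R1* (3.71) and *Prosalpha6T* (4.61). The 14 subunit genes of cytochrome c oxidase were 7 between 10.33 and 11.53 and 7 between 3.82 and 4.80, the latter with L for "like" in the name. The 8 genes of the CCT chaperonin, for which no such copies were named, were all between 11.20 and 11.77.

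**Figure D4:**
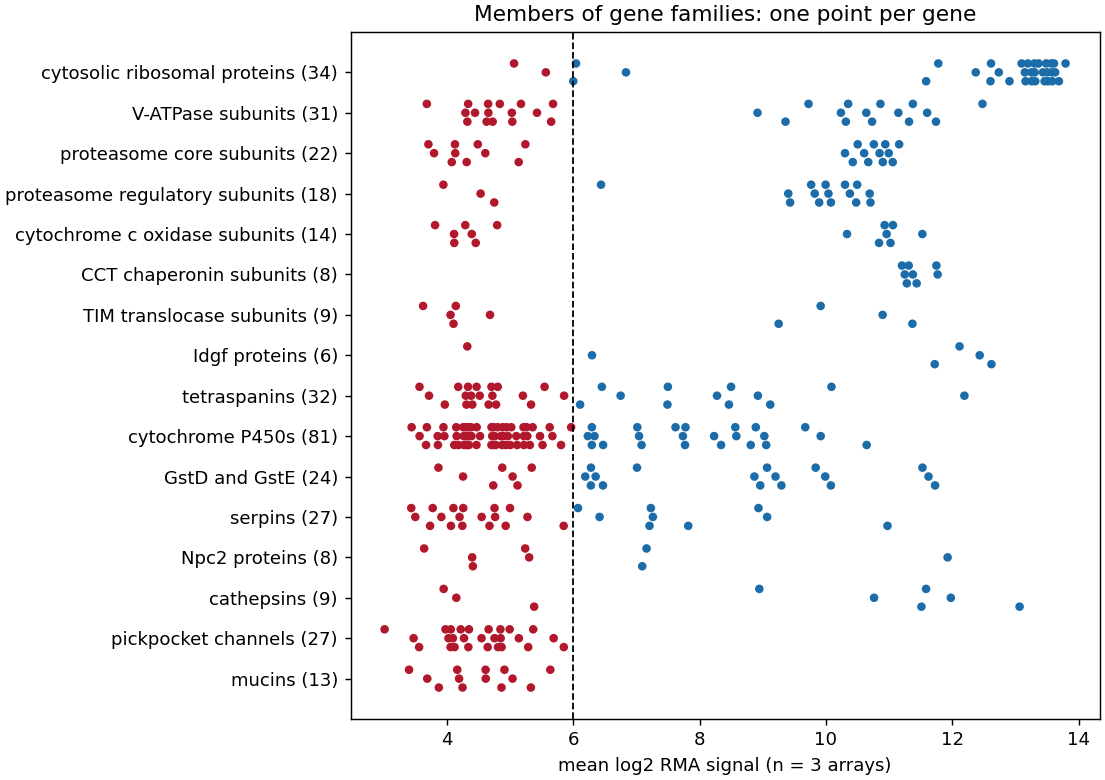
Mean log2 signal over the 3 arrays (x axis) of each gene (points) in 16 families (rows, number of genes in brackets); blue points are at or above 6 (dashed line) and red points under it. V-ATPase, proteasome core and cytochrome c oxidase genes leave a gap on the axis, from 5.68 to 8.92 for V-ATPase, while tetraspanins and cytochrome P450s lie on both sides of the line without one.

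Families of enzymes and membrane proteins that cells choose from were spread more evenly. Of 81 cytochrome P450 genes, which oxidize hormones and foreign compounds, 23 (28.4%) were at or above 6 and 58 under it, with *Cyp4e2* the highest at 10.64. Of 32 tetraspanins 12 were at or above 6, from *Tsp2A* at 6.11 to *Tsp42Ee* at 12.19. Of 24 glutathione transferase genes of the GstD and GstE classes 17 (70.8%) were above, led by *GstE6* at 11.73. The share over all genes was 49.2%. Some of the 17 had arrays on both sides of 6, such as *GstD5* (5.86, 5.29 and 7.70) and *GstD7* (7.85, 6.15 and 5.42). The pickpocket channels (27 genes) and the mucins (13 genes) had no member at or above 6.

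Between repeats, 84 genes at or above 6 had an SD over 1. Replicate 3 was the highest array for 57 of them and replicate 1 for 26, and replicate 1 was the lowest for 52. *Hsp26*, a small heat shock gene, read 7.17, 8.03 and 11.98, the largest spread of all genes at or above 6. *Hsp27* read 7.43, 6.92 and 10.50 and *Hsp68* 6.43, 6.97 and 10.30. The mitochondrial chaperonin gene *Hsp60A* was at 11.17 ± 0.03, with no such spread. In the heat shock and metal list replicate 3 was the highest array for 8 of 9 genes, including *MtnA*, a metallothionein gene, at 9.09, 9.48 and 11.26. Without replicate 3, 6 of the 9 were at or above 6, as with it.

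Some genes of glycogen and glucose metabolism, picked for their spread, were also highest in replicate 3. *Pepck1*, of gluconeogenesis, read 8.04, 9.71 and 11.62. *Glyp*, the glycogen phosphorylase gene, read 6.67, 8.36 and 10.05, and *Gbs-70E*, for a glycogen-targeting subunit of a phosphatase, 6.37, 8.11 and 9.49. The TGF-beta ligand gene *daw* read 6.26, 9.12 and 10.46, and *ImpL2*, encoding an insulin-binding protein, 10.14, 11.62 and 12.16. *CG31038* was lowest in replicate 3, with 8.27, 6.63 and 5.15, and its other probe set had a mean of 4.18. Iron genes were highest in replicate 3 for 8 of 9 and integrin adhesion genes for 11 of 13, while 54 of 69 mitochondrial ribosomal protein genes were highest in replicate 1. Over all 11982 genes, 4370 were highest in replicate 3 and 4801 in replicate 1. As the arrays are 3 samples of 1 group, no test between repeats was made, and what sets them apart was not tested.

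**Figure D5:**
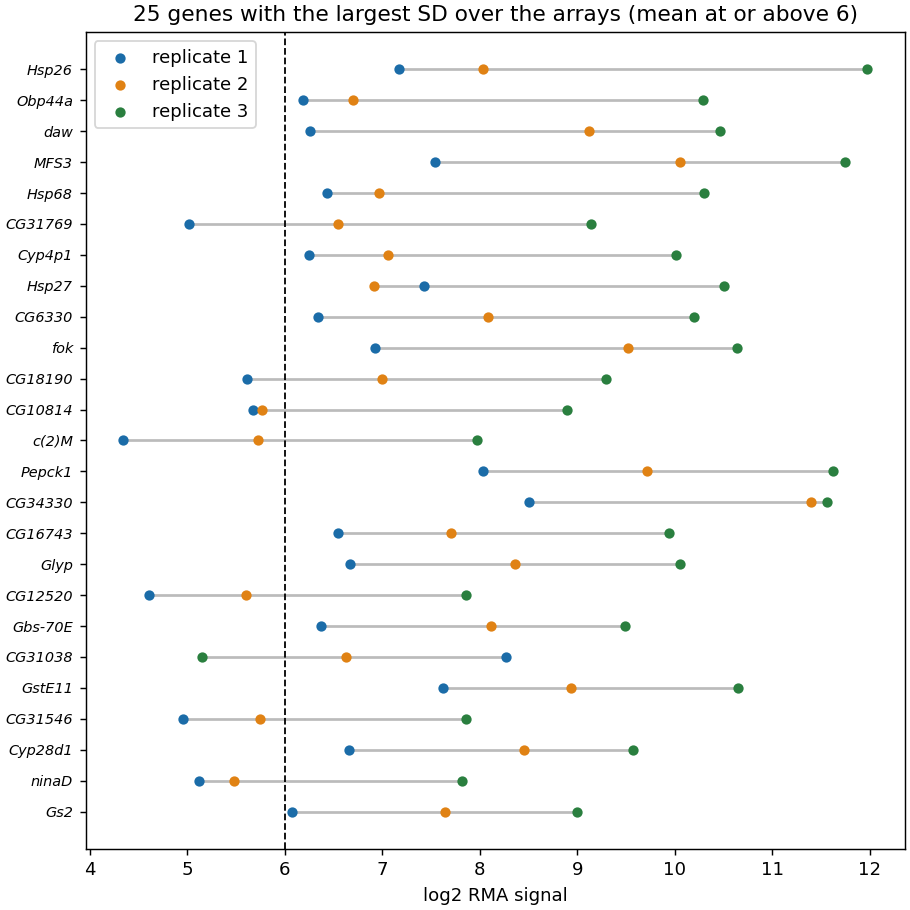
Log2 signal (x axis) on each of the 3 arrays (colored points joined by a gray line) for the 25 genes with the largest SD among those with a mean at or above 6; the dashed line marks 6. Replicate 3 is the highest point for most of them, as for *Hsp26* at 11.98 against 7.17 and 8.03, and the lowest for *CG31038*.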

How the data were processed

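The 3 arrays of the GFP dsRNA group were used out of 12. The authors processed the scans with RMA in RMAExpress (background correction, quantile normalization between arrays and 1 summary value per probe set) and deposited log2 values. Which arrays were normalized together, and the version, are not given in the sources used here. Quantile normalization makes the distributions alike, so a change in total mRNA cannot be seen. No further normalization was applied. After 183 control probe sets were left out, probe sets were named through the platform annotation, with symbols updated to RefSeq by gene ID. A probe set with several genes named none. The suffix of a probe set says whether its probes are shared by several transcripts.

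With 1 group there is no contrast, so no test was made and no p-value is given. Values are means and SDs of 3 arrays, whose number limits the precision. Genes were counted at or above 6, 8, 10 and 12. The 54 lists hold 1007 genes, of which 871 were measured, and 136 were not analysed here. The members, lists and thresholds were chosen with earlier results of these data known. The genes named were drawn from the markers, the 25 highest genes with and without ribosomal proteins, the lists (members with the highest and lowest means, and any member of the hemocyte, Imd, Toll and peptide lists), list members within 0.25 of 6 and the 10 genes with the largest SD, and not all of these are named. Further genes come from families and from the 25 genes with the largest SD, or illustrate a comparison, and were chosen after the values were seen.

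Alternatives were the lowest array in place of the mean, thresholds of 5 and 7, the median over the probe sets of a gene, quantile normalization of the 3 arrays alone, centring on the median, the mean of linear signals, and leaving out each array. The counting was tested on simulated data. Python 3.11.15, pandas 2.3.3, numpy 2.4.6 and matplotlib 3.10.9 were used.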

Additional observations from a re-analysis of the deposited data

How the results depend on the processing

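The 8 counts at or above a threshold that the results rest on (all probe sets, all genes at 6 and at 10, and the hemocyte, immune, signaling, tissue and chemosensory lists) stayed within 1.5 times under quantile normalization of the 3 arrays alone, centring on the median, the mean of linear signals, the median over probe sets (7 counts, as probe sets have none) and without each array in turn. The deposited values were already quantile normalized, so a further quantile normalization or centring could hardly move them. Under either of these, 0 of 871 list genes changed side, which says little about how firm the counts are. With a threshold of 5, tissue marker genes above it numbered 96 in place of 30 and chemosensory genes 37 in place of 5. With a threshold of 7 there were 2 chemosensory genes, and 2 when the lowest of the 3 arrays was used. These 3 settings move the line or the value set against it. Of 871 list genes, 26 lie within 0.25 of 6, such as *CG17109* and *crb* (both 5.97) just under and *Or1a* and *Med* (both 6.04) just over. The side changed for 11 with the lowest array, 7 with the median over probe sets, 4 without replicate 1, 3 without replicate 2 and 8 without replicate 3. *Pxn* read 7.99 by the median of its 2 probe sets. Of 1094 genes with several probe sets, 329 (30.1%) have probe sets on both sides of 6. No paired analysis was possible because the values come from 1 group and no test.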

Other observations

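Families named by the stem of their symbol, with at least 8 named genes each, give a wider view of what was above background. All measured members were at or above 6 for the Mediator subunits (MED, 22 genes, median 8.37), the vacuolar protein sorting genes (Vps, 27 genes, median 8.43), the Integrator subunits (IntS, 11 genes, median 7.63) and the endoplasmic reticulum membrane complex (EMC, 9 genes, median 9.73). The nucleoporins (Nup) had 19 of 20 and the autophagy genes (Atg) 18 of 20. At the other end, 0 of 9 ecdysone-induced Eig genes, 1 of 13 Jonah protease genes (Jon), 3 of 20 dpr genes for neuronal surface proteins and 10 of 35 glycosyltransferase genes (Ugt) were at or above 6. The share over all genes was 49.2%.

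Genes were also placed in the order of RefSeq, with genes that were not analysed skipped, so neighbors here need not be adjacent. Of the placed genes 49.4% were at or above 6, and 66.3% of 11882 neighboring pairs lay on the same side of 6. The longest run of neighbors under 6 held 28 genes, from *Cpr35B* to *mol*, with a median of 4.11. A run of 24 held 9 odorant binding protein genes from *Obp56a* to *Obp56i*. The longest run at or above 6 held 21 genes, from *Itpr* to *Dph4*. A run of 18 held *vkg* and *Col4a1*, which lie next to each other.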
